A study of Mus musculus with 13 samples.

Results

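The AP-1 family was examined through 10 of its genes in the chromatin of LβT2, an established mouse line with the features of pituitary gonadotropes. The genes were Fos, Fosb, Fosl1, Fosl2, Jun, Junb, Jund, Atf3, Batf and Jdp2. A peak was counted for a gene when the deposited annotation gave it that gene's name and placed it no more than 100 kb from the gene's start. By this rule 181 of the 538751 peaks in 12 deposited lists belonged to the family. At least 1 peak carried the name of 9 of the 10 genes, and no peak carried the name of Fosl1. The cells of every group had been stably transduced with a lentiviral cassette for FLAG-mFoxL2, a FLAG-tagged mouse FOXL2 induced by doxycycline, together with a constitutive GFP. All groups recovered for 24 h after plating and received doxycycline for 48 h, so no group lacks the induced protein. All were then kept for 2 h in medium with serum lowered to 2%. They were next exposed to vehicle or to activin A (1 nM) over 1 h, and chromatin was precipitated with antibodies to SMAD2/3, to the FLAG tag (written FOXL2 here) or to histone H3 acetylated at lysine 27 (H3K27ac). Each antibody was used on 2 vehicle and 2 activin libraries, and each library came from plates pooled in sets of 3. The anti-FLAG antibody reads the induced protein and not endogenous FOXL2. The labels do not say whether the transduced line was 1 clone or whether the duplicates were separate cultures, so a difference between duplicates may be technical. A sample labelled as a Protein-A control was not analysed here.

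AP-1 is a dimer of basic leucine zipper proteins. Fos proteins pair with Jun proteins, Jun proteins can also pair with each other, and the dimers bind short TGANTCA sites. Several AP-1 genes are immediate early genes, transcribed within minutes of a stimulus from factors already in the cell. In gonadotropes, gonadotropin-releasing hormone is known to induce Fos and Jun family members, and activin, through SMAD2 and SMAD3, acts with FOXL2 on Fshb, the gene of the follicle-stimulating hormone β subunit. H3K27ac marks active promoters and enhancers.

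Reads per library are unknown from peak lists, so list length stands in for depth. The SMAD2/3 lists of the vehicle cells held 605 and 144 peaks, those of the activin cells 7784 and 5970. FOXL2 list length was 86401 in vehicle 1 and 83834 in vehicle 2, against 97701 in activin 1 and 94006 in activin 2. Both activin lists of this antibody were therefore longer than either vehicle list. H3K27ac list length ranged from 38995 to 41763 and overlapped between treatments. Acetylation of marker promoters matched the labelled cell type in part: of 5 gonadotrope markers with a promoter window, Cga, Gata2, Gnrhr and Lhb were acetylated in all 4 libraries and Fshb in none. Of 8 markers of other pituitary lineages with a window, 7 were acetylated in no library, and Neurod1 was acetylated in 3 of 4. Fold enrichment is the authors' value for each peak over their background. It describes a peak within its list, and differences in fold between lists were not tested. A percentile is a peak's rank by −log10 q in its own list, with 100 for the strongest.

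The family's peaks were distributed unevenly over targets, treatments and genes. SMAD2/3 had no family peak in either vehicle list and 2 in each activin list, 1 named for Fos and 1 for Jdp2. FOXL2 had 14 and 22 family peaks with vehicle, against 18 and 21 with activin. H3K27ac had 27 and 24 with vehicle, against 28 and 23 with activin. The number of FOXL2 and H3K27ac peaks therefore overlapped between treatments, and only the SMAD2/3 numbers did not. The whole SMAD2/3 lists did not overlap in length either, with 605 and 144 peaks for vehicle, against 7784 and 5970 for activin. Fos and Jdp2 held most of the FOXL2 peaks, with 9, 11, 11 and 9 for Fos and 3, 5, 4 and 7 for Jdp2 in the order vehicle 1, vehicle 2, activin 1, activin 2. With 2 libraries against 2, the smallest p of an exact two-sided permutation test is 2 of 6 labellings, so no comparison of treatments here can pass the usual threshold.

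**Figure D1:**
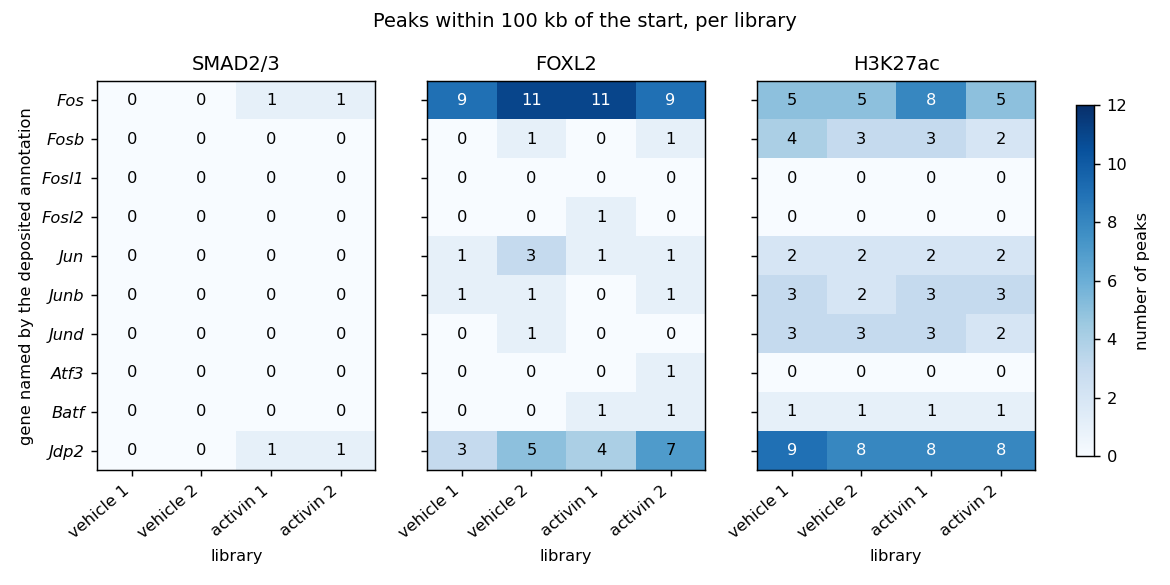
Number of peaks named for each AP-1 gene within 100 kb of its start, with genes as rows, the 4 libraries of each antibody as columns and the count printed and shaded in each cell. SMAD2/3 counts are above 0 for Fos and Jdp2 in the activin columns, and Fosl1 is at 0 in all 3 panels.

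Fos (ENSMUSG00000021250) encodes the partner of Jun in the classical AP-1 dimer and is the standard immediate early gene. Its gene lies on the plus strand of chromosome 12, and its RefSeq promoter is shown because no SMAD2/3 or FOXL2 peak lay on it while it was acetylated in all 4 libraries. The 250 bases before the RefSeq start, chr12:85473640-85473889 on GRCm38.p6, plus strand, read as follows.
Fos: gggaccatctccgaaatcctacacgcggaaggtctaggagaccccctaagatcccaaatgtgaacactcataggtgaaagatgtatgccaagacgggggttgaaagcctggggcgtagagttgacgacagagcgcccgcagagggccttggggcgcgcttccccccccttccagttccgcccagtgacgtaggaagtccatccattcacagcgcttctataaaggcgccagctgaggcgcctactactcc
No run of capitals is marked, since none of the 5 motif words searched on both strands occurred in the window. Those words were TGANTCA (the AP-1 site), TGACGTCA (the cyclic AMP response element), TGTTTAC (a forkhead site), CAGAC (the SMAD-binding CAGA box) and the serum response element in the form known from Fos. Among 32851 RefSeq promoter windows of 300 bases, 7.81% held the first, 1.79% the second, 3.65% the third, 49.6% the fourth and 0.0639% the fifth. A missing word says only that these letters are not in this window.

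The SMAD2/3 site of Fos lay upstream of the gene. It was called at chr12:85462350-85462607, 258 bp wide, intergenic, at -12.2 kb from the start used in the deposited annotation, where a minus sign means upstream. That start lies 801 bp downstream of the RefSeq start. Neither vehicle list held a peak there. Its fold enrichment was 11.7 in activin 1 and 10.1 in activin 2, with −log10 q of 32.4 and 22.5. It stood at place 1000 of 7784 and at place 1115 of 5970, the 87.2 and 81.3 percentiles of those lists. The peak was thus among the stronger SMAD2/3 peaks of both activin libraries. Over all merged SMAD2/3 regions, 54% had a peak in both activin and neither vehicle library and 60% had a peak in both activin libraries, so this pattern alone does not set the Fos site apart.

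FOXL2 peaks lay at the same place in vehicle and activin cells. The FOXL2 region at chr12:85462285-85462647 had a peak in all 4 libraries, and its summits differed by 24 bp across them. The summit of the SMAD2/3 peak lay 12 bp from the FOXL2 summit in activin 1 and 11 bp in activin 2. The fold enrichment of FOXL2 was 9.27 and 10.0 with vehicle, against 14.4 and 15.1 with activin. Ranked within each whole list, these peaks stood at the 69.1 and 77.9 percentiles with vehicle, against 80.2 and 83.0 with activin, and the groups did not overlap. The activin lists were the longer ones, and the share of all FOXL2 regions with this order is not given here. Ranked only among FOXL2 regions present in all 4 libraries, which gives each library the same number of regions, they stood at 54.9 and 68.6 with vehicle, against 67.7 and 73.1 with activin, and the groups overlapped.

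Acetylation at this site was called with activin only. The H3K27ac region at chr12:85461646-85464122, 2477 bp long, had 2 peaks in each activin library and none in either vehicle library. Its highest fold was 4.53 in activin 1 and 3.43 in activin 2, with −log10 q of 7.71 and 2.96. These values placed it at the 68.3 and 36.1 percentiles, so it was of middling strength and weaker in activin 2. With a −log10 q of 5 or more required in both activin libraries it was not counted. The SMAD2/3 summit lay 98 bp outside the nearest H3K27ac peak in activin 1 and inside a peak in activin 2. Of 5162 SMAD2/3 regions called in both activin lists, 302, or 5.85%, shared all these features: SMAD2/3 with activin only, H3K27ac with activin only, and FOXL2 in all 4 libraries. Across all H3K27ac regions called with activin only, 15.2% overlapped SMAD2/3 in both activin libraries.

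**Figure D2:**
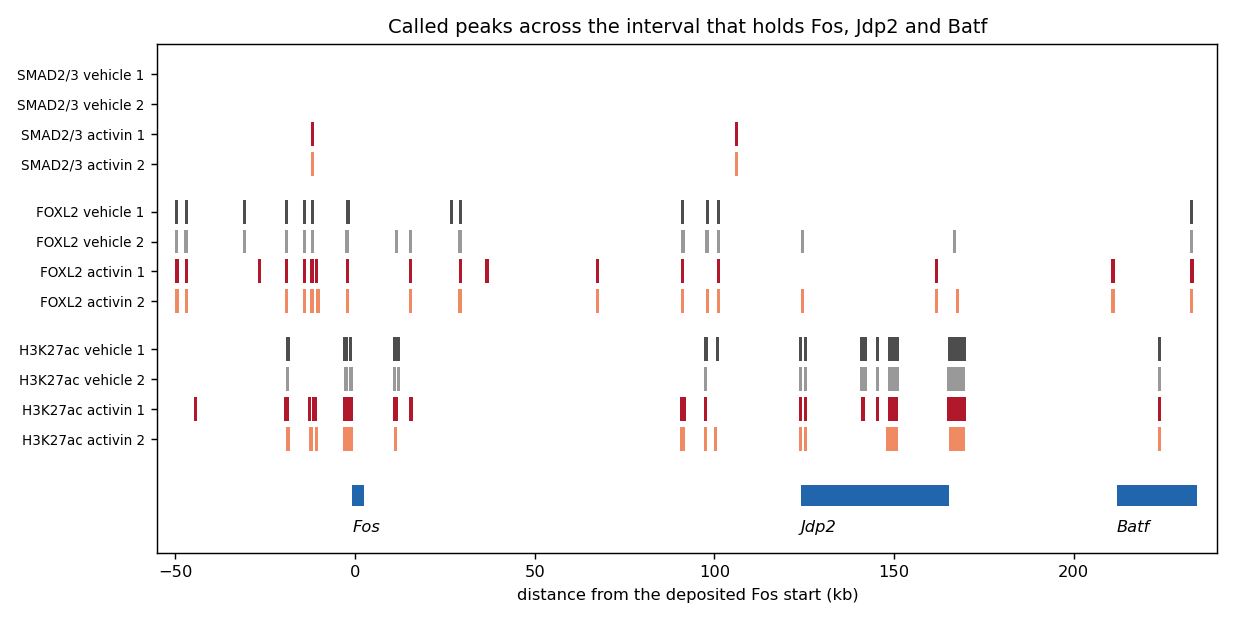
Called peaks across the interval of chromosome 12 that holds Fos, Jdp2 and Batf, with distance from the deposited Fos start in kb on the horizontal axis, 1 row per library and the genes as blue bars. Short peaks are widened so that they remain visible; the SMAD2/3 peak at -12.2 kb stands above FOXL2 peaks in all 4 rows and H3K27ac peaks in the activin rows.

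The Fos promoter itself carried H3K27ac in every library. The region at chr12:85471279-85474217 had fold enrichments of 5.09 and 4.68 with vehicle, against 5.49 and 5.17 with activin. Among H3K27ac regions found in all 4 libraries it stood at the 71.3 and 67.4 percentiles with vehicle, against 75.4 and 72.0 with activin, a small separation without overlap. It was called as 2 peaks in each vehicle library and as 1 continuous peak in each activin library. Downstream, the 1455 bp region at chr12:85485143-85486597, +11.2 kb from the start, also had 2 peaks in each vehicle library and 1 in each activin library. The single peak covered 1446 bp in activin 1 and 925 bp in activin 2, so it spanned nearly the whole region in activin 1 only. There the percentiles were 30.7 and 36.5 with vehicle, against 52.3 and 50.3 with activin. A region at -18.9 kb stood at 47.7 and 42.6 with vehicle, against 65.2 and 61.8 with activin. All 3 Fos regions acetylated in every library thus ranked higher in both activin lists than in either vehicle list. Of all H3K27ac regions found in all 4 libraries, 27.9% had this order, and the 3 regions share a locus and are not independent.

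The DNA covered by H3K27ac peaks named for Fos was longer with activin. It came to 3266 and 3441 bp with vehicle, against 7675 and 5669 bp with activin, 1.99 times as much on average, while the mean fold of those peaks was 3.92, 3.59, 3.92 and 3.90 in the order used above. The exact two-sided permutation test gave the smallest p it can give here, 2 of 6 labellings. Among 13467 genes with H3K27ac peaks in all 4 libraries, this ratio stood at the 94.2 percentile, and the median gene had a log2 ratio of -0.08. Covered length was greater in both activin lists than in either vehicle list for 22.3% of those genes, and greater in both vehicle libraries for 32.6%. Of the 7 AP-1 genes with H3K27ac peaks, Fos was the member with the first pattern and Junb the member with the second.

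**Figure D3:**
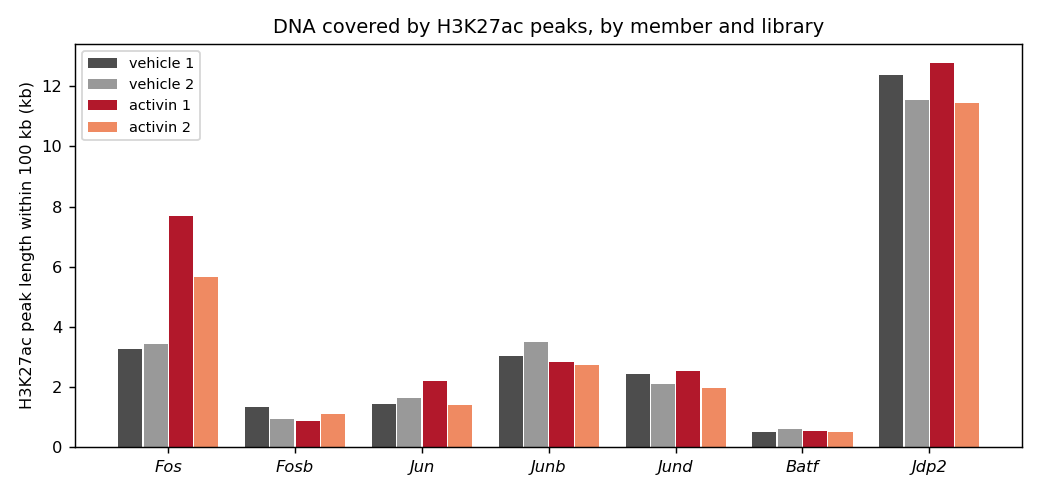
Length of DNA covered by H3K27ac peaks named for each AP-1 gene (vertical axis, kb), with 1 bar for each of the 2 vehicle and 2 activin libraries. Both activin bars of Fos, 7675 and 5669 bp, exceed its vehicle bars of 3266 and 3441 bp, while the bars of Jdp2 lie between 11448 and 12772 bp.

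FOXL2 occupied 7 regions of Fos in all 4 libraries, and their ranks differed in direction between treatments. The region at -14.2 kb, about 2 kb beyond the SMAD2/3 site, had fold enrichments of 16.9 and 12.8 with vehicle, against 19.9 and 19.5 with activin. Its percentile among common regions was 73.3 and 69.0 with vehicle, against 79.0 and 81.4 with activin. Those at -49.9 and -47.2 kb had the opposite order. The first stood at 57.9 and 45.3 with vehicle, against 38.6 and 31.2 with activin, and the second at 43.6 and 50.1 with vehicle, against 35.4 and 30.2 with activin. The remaining regions, at -19.3, -12.2, -2.27 and +28.9 kb, overlapped between treatments. The one nearest the start, at -2.27 kb, varied most between duplicates, with percentiles of 12.2 and 62.2 for vehicle and 31.1 and 54.5 for activin. A weak region at chr12:85443477-85443747, -31.1 kb, was called in both vehicle libraries, with folds of 3.91 and 3.83, and in neither activin library. A region at chr12:85489591-85489884, +15.0 kb, was called in vehicle 2 and both activin libraries and not in vehicle 1. Its fold was 3.56 in vehicle 2, against 7.90 and 11.0 with activin. In the whole lists it stood at the 3.22 percentile in vehicle 2, against 51.5 and 67.4 with activin. Among the 16 FOXL2 regions of Fos, that at -12.2 kb was the one that overlapped a SMAD2/3 peak.

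The other Fos genes had few peaks of their own. Fosl1, which encodes the Fos-related protein FRA1, had no named peak. The nearest H3K27ac peaks carried the name of the neighbour Ccdc85b and lay outside the RefSeq span of Fosl1, 1111 and 1073 bp from it with vehicle and 673 and 630 bp with activin, at the 79.8, 56.6, 75.7 and 87.0 percentiles of the lists. This flank was thus acetylated in all 4 libraries, and the percentiles overlapped between treatments. How often the edges of peaks differ between treatments by such distances was not counted over all regions. Fosb (ENSMUSG00000003545), whose protein replaces Fos in AP-1 dimers, had a FOXL2 peak at -0.30 kb in vehicle 2 and activin 2 only, with folds of 4.36 and 4.59. Its H3K27ac region at +1.61 kb, in the first intron, was called in all 4 libraries at percentiles of 55.5 and 46.5 with vehicle, against 48.5 and 17.6 with activin. The treatments overlapped there, and the low value belonged to activin 2. Fosl2 (ENSMUSG00000029135), which encodes the Fos-related protein FRA2, had 1 named FOXL2 peak, in activin 1, and no named H3K27ac peak. Its deposited start lies 10049 bp downstream of the RefSeq start, and peaks at the RefSeq start carried the name of the neighbour Gm10463. The H3K27ac region there, chr5:32134346-32137849, was found in all 4 libraries. Its fold was 4.26 and 4.03 with vehicle, against 5.12 and 6.28 with activin, and its percentile among common regions was 36.2 and 40.1 with vehicle, against 61.3 and 77.9 with activin. Counted by position, the Fosl2 promoter therefore belongs with the Fos promoter among regions that ranked higher with activin. A FOXL2 region inside the gene, chr5:32139391-32139744, also carried the name Gm10463 and was called in all 4 libraries. It had the opposite order, at 31.2 and 29.4 with vehicle, against 4.51 and 21.9 with activin. Of all FOXL2 regions found in all 4 libraries, 33.1% had that order. These regions of Fosl2 were looked at after the values were seen.

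Jun proteins form the other side of the dimer. Jun (ENSMUSG00000052684) on chromosome 4 and Junb (ENSMUSG00000052837) on chromosome 8 are shown together because FOXL2 peaks lay on both promoters in some libraries, and of these promoters only that of Junb holds a forkhead word. H3K27ac lay on the Jun window in all 4 libraries. It lay on the Junb window in both vehicle libraries and in neither activin library. The sequences are the 250 bases before the RefSeq starts on GRCm38.p6, both from the minus strand, chr4:95052223-95052472 for Jun and chr8:84978749-84978998 for Junb. Capitals mark TGTTTAC.
Jun: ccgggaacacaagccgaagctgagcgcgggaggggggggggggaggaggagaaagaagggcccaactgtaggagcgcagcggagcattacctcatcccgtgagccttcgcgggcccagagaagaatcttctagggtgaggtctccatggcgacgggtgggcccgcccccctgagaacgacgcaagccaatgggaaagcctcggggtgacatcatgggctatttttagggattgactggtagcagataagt
Junb: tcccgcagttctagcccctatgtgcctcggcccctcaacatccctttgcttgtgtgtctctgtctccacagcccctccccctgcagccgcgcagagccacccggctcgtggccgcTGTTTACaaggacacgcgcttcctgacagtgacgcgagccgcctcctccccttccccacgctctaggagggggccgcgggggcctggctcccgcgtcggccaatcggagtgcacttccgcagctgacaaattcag
The Jun window held none of the 5 words, and its bases were 61.2% G or C. The Junb window was 66.4% G or C, against 58.4% for Fos.

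At Junb the FOXL2 peak lay over the forkhead word. The merged region, chr8:84978741-84979013, had a peak in vehicle 1, vehicle 2 and activin 2 and none in activin 1. Its fold was 4.60 and 6.49 with vehicle and 4.96 in activin 2, at the 16.5, 49.2 and 27.6 percentiles of the lists. The word lies at chr8:84978877-84978883, from -135 to -129 relative to the start. The 3 summits lay 15, 2 and 49 bp from its centre. The word is present in 3.65% of promoter windows, and its overlap with this peak is a description of position. The merged H3K27ac region near the Junb start, at +0.36 kb, had peaks in all 4 libraries, though no activin peak lay on the window. Its percentiles were 76.6 and 44.5 with vehicle, against 61.8 and 52.5 with activin. These values overlapped, although the length covered by Junb peaks was lower with activin, at 3042 and 3494 bp with vehicle, against 2825 and 2733 bp with activin, a ratio of 0.85.

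Jun itself had a different pattern. Its H3K27ac region at -0.96 kb had folds of 4.82 and 3.69 with vehicle, against 5.51 and 5.01 with activin. Its percentiles were 56.3 and 36.6 with vehicle, against 76.7 and 65.0 with activin, so both activin libraries ranked it higher, with a wide gap between the vehicle duplicates. The second region, at +0.48 kb inside the gene, stood at 69.2 and 37.5 with vehicle, against 67.2 and 84.0 with activin, and the treatments overlapped. FOXL2 at Jun was called in some libraries only. A peak at the start was in vehicle 2 alone, another at -1.09 kb in vehicle 2 and activin 2, and the remaining peak, at -4.73 kb, in vehicle 1, vehicle 2 and activin 1. Jund (ENSMUSG00000071076), which is expressed more steadily than Jun and Junb in many cells, had H3K27ac at -1.06 and +0.67 kb in all 4 libraries. The first stood at 58.1 and 52.8 with vehicle, against 53.7 and 37.5 with activin, and the second at 72.2 and 48.6 with vehicle, against 51.4 and 43.5 with activin. Its single FOXL2 peak was in vehicle 2. No Jun gene had a SMAD2/3 peak of its own name in any library.

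Atf3, Batf and Jdp2 encode smaller partners that bind Jun proteins. Batf and JDP2 lack the activation domain of Fos, and JDP2 is known as a repressor of AP-1 targets. Atf3 (ENSMUSG00000026628), a stress-induced gene, had 1 weak FOXL2 peak, in activin 2, with a fold of 3.85, and no SMAD2/3 or H3K27ac peak. Its deposited start lies at -34706 bp from the RefSeq start, and the RefSeq gene span with 1 kb on either side also held no H3K27ac peak in any library. Batf (ENSMUSG00000034266), best known from lymphocytes, had 1 named FOXL2 region, with activin only, chr12:85685173-85685464 at -1.35 kb, with folds of 5.82 and 6.84. Another FOXL2 region, chr12:85707080-85707460, lay inside the RefSeq span of Batf under the name AC117240.1 and was called in all 4 libraries. Its percentiles among common regions were 64.3 and 30.7 with vehicle, against 62.0 and 37.6 with activin, and the treatments overlapped. Batf had an H3K27ac region at +11.7 kb in all 4 libraries. The percentiles of this H3K27ac region were 47.0 and 65.2 with vehicle, against 53.1 and 68.9 with activin, and the replicates differed more than the treatments.

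Jdp2 (ENSMUSG00000034271) had the longest acetylated DNA of the family. Its H3K27ac peaks covered 12374 and 11546 bp with vehicle, against 12772 and 11448 bp with activin, a ratio of 1.01. The region at -0.44 kb stood at 91.2 and 88.2 with vehicle, against 95.2 and 91.7 with activin, and that at +0.98 kb at 30.7 and 37.7 with vehicle, against 51.3 and 60.0 with activin. Both ranked higher in both activin libraries. The region at +25.2 kb, chr12:85622539-85625988, had the opposite order, with 76.6 and 70.8 with vehicle, against 65.5 and 58.5 with activin. A strong 5279 bp region at +42.9 kb overlapped between treatments, at 94.4 and 92.4 with vehicle, against 95 and 92.6 with activin. The total length thus overlapped between treatments, and the regions found in all 4 libraries ranked in either direction or overlapped. An intron region at +20.7 kb was called in 3 libraries, at the 3.10 and 8.52 percentiles of the vehicle lists and the 33.6 percentile in activin 1.

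Jdp2 had regions called in a single treatment for each target. H3K27ac was called with activin only at chr12:85565016-85566753, -33.2 kb, with folds of 3.66 and 3.72 and −log10 q of 4.34 and 3.32, over a FOXL2 region present in all 4 libraries and without SMAD2/3. It was called with vehicle only in an intron at chr12:85616144-85616674, +17.3 kb, with folds of 4.47 and 3.72 and −log10 q of 6.73 and 4.56. Neither region was counted when a −log10 q of 5 or more was required. FOXL2 was called with activin only at chr12:85541787-85541998, -57.2 kb, with folds of 6.94 and 9.67, and in an intron at chr12:85635968-85636216, +37.0 kb, with folds of 3.12 and 4.21. The intron FOXL2 region had −log10 q of 2.98 in activin 1 and 6.54 in activin 2. It too was not counted when 5 or more was required. The FOXL2 regions of Jdp2 found in all 4 libraries, at -33.5 and -23.6 kb, overlapped between treatments. At -33.5 kb the percentiles were 19.8 and 49.1 with vehicle, against 27 and 31.7 with activin.

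The SMAD2/3 site of Jdp2 differed from that of Fos in strength and surroundings. It lay at chr12:85580297-85580502, intergenic, at -18.7 kb, and neither vehicle list held it. Its fold was 5.96 and 5.10, with −log10 q of 7.33 and 4.78, at place 5363 of 7784 and 5134 of 5970. These are the 31.0 and 14.0 percentiles, below the Fos site in both activin lists. The site was not counted when a −log10 q of 5 or more was required, and neither SMAD2/3 site was among the strongest 144 peaks, the length of the shortest list. The nearest FOXL2 summit was 4983 bp away in activin 1 and 4873 bp in activin 2, and the nearest H3K27ac peak 7779 and 5586 bp away. Of all SMAD2/3 regions called in both activin lists, 82% overlapped FOXL2 and 76.7% overlapped H3K27ac in both activin libraries, as the Fos site did. Of the family sites, 1 of 2 overlapped each target, a share of 50% whose Wilson 95% interval of 9.45 to 90.5% covers counting error only. Only 1.8% of all such regions, 93 of 5162, had neither target in any library, as at the Jdp2 site.

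**Figure D4:**
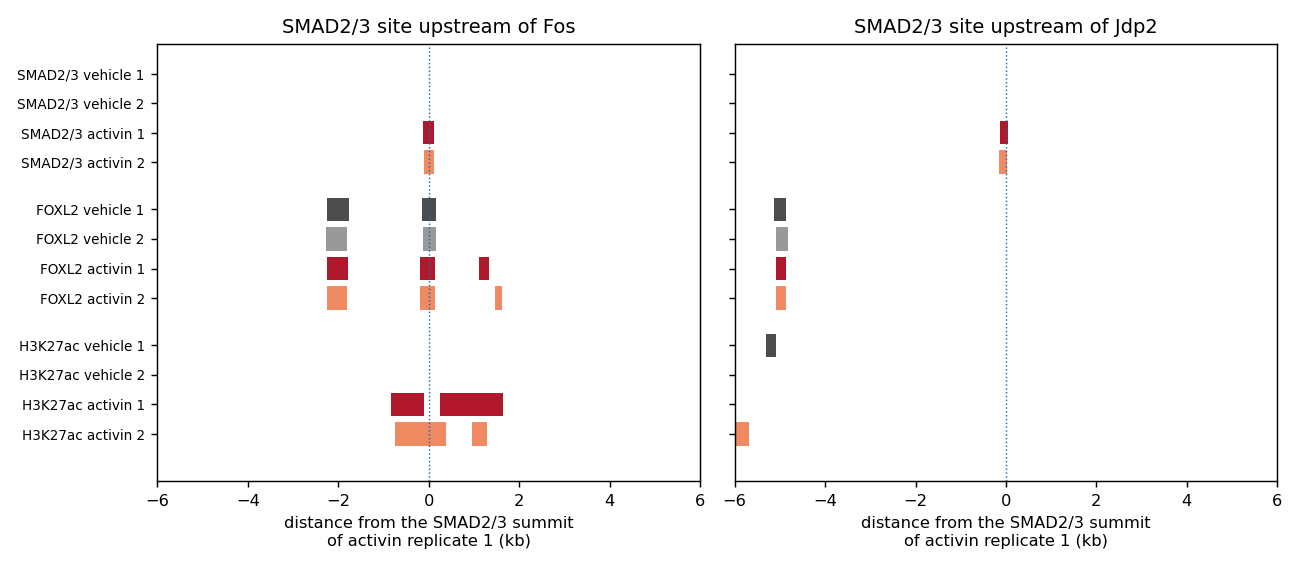
Called peaks around the SMAD2/3 sites of Fos (left) and Jdp2 (right), to scale, with distance from the SMAD2/3 summit of activin 1 in kb on the horizontal axis and 1 row for each of the 12 libraries. At Fos the FOXL2 peaks of all 4 libraries and the H3K27ac peaks of both activin libraries surround the summit, and at Jdp2 the nearest FOXL2 summits lie 4983 and 4873 bp away in the activin libraries.

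Counts over the family were set beside the share of all regions of the same antibody. Of 33 FOXL2 regions, 3 were called with activin only, against 8.95% of all FOXL2 regions, and 1 with vehicle only, against 3.22%. A FOXL2 peak in all 4 libraries was found at 9 of 33, or 27.3%, against 46.8% of all FOXL2 regions. Of these 9 regions 7 belonged to Fos. Of 29 H3K27ac regions, 2 were called with activin only, against 5.84%, and 1 with vehicle only, against 6.79%. H3K27ac in all 4 libraries was found at 17 of 29, against 45.9%. These regions share genes, and Fos, Jdp2 and Batf lie beside each other on chromosome 12, so they are not independent and no test was made over them.

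Ranks among regions found in all 4 libraries gave the same kind of comparison without regard to list length. For FOXL2, 1 of 9 family regions ranked higher in both activin libraries, against 26.1% of all such regions, and 2 ranked higher in both vehicle libraries, against 33.1%. For H3K27ac, 6 of 17 ranked higher in both activin libraries, against 27.9%, and 1 ranked higher in both vehicle libraries, against 30.4%. Leaving out 1 library loosens the rule, so more regions can meet it, and the shares over all regions are not given for it. Without each library in turn (vehicle 1, vehicle 2, activin 1, activin 2), the H3K27ac regions ranked numbered 17, 17, 17 and 20. Those higher with activin numbered 10, 7, 8 and 9 and those higher with vehicle 2, 6, 5 and 4. The FOXL2 regions ranked numbered 10, 9, 11 and 10. Those higher with activin numbered 2, 5, 4 and 1 and those higher with vehicle 5, 3, 4 and 4. With all 4 libraries, the 6 regions were 3 of Fos, 2 of Jdp2 and 1 of Jun, and the single region in the other direction was that of Jdp2 at +25.2 kb.

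**Figure D5:**
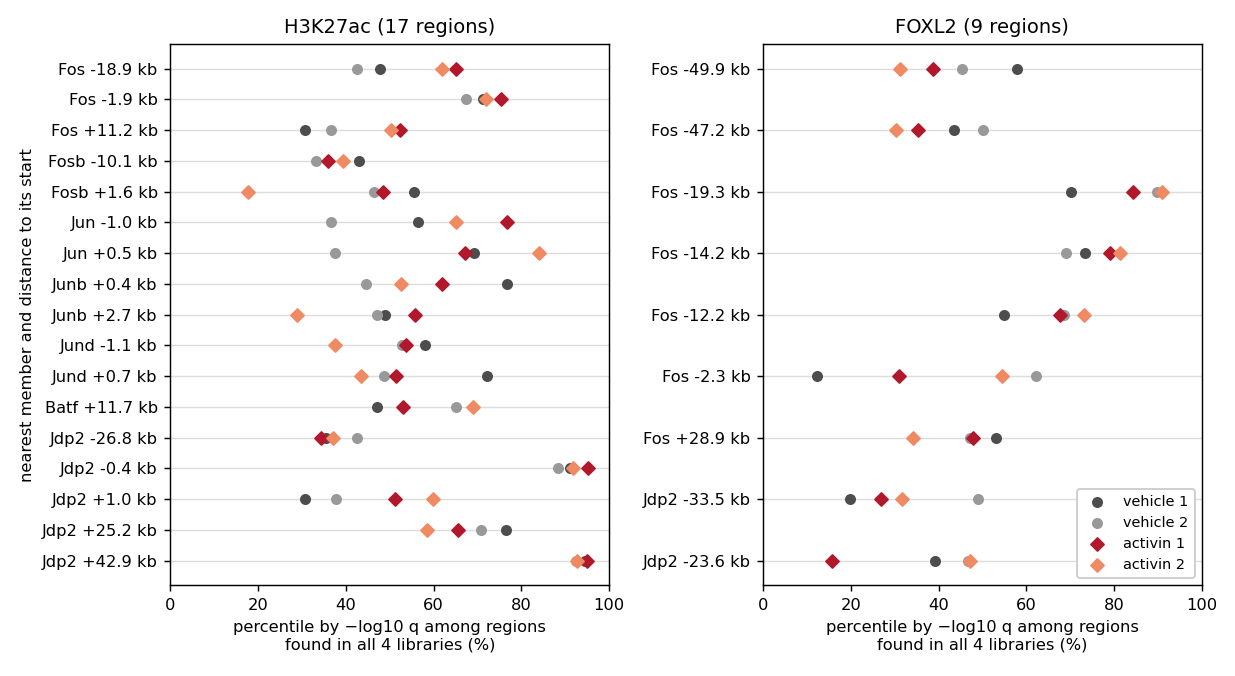
Percentile by −log10 q among regions found in all 4 libraries (horizontal axis, %), with 1 row for each H3K27ac (left) or FOXL2 (right) region of the family, circles for vehicle and diamonds for activin libraries. The H3K27ac regions of Fos lie higher in both activin libraries, at 65.2 and 61.8 against 47.7 and 42.6 for that at -18.9 kb, and the FOXL2 regions lie in either order.

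Counted per gene, the family can be set beside 39 other genes of basic leucine zipper proteins, 30 of which were named in the lists. At least 1 SMAD2/3 region called in both activin lists belonged to 2 of the 9 named AP-1 genes and to 7 of the 30 others, against 11.6% of all 28143 genes named within 100 kb. FOXL2 in all 4 libraries was found at 2 AP-1 genes, Fos and Jdp2, and at 17 of the others, against 58.3%. This count goes by gene name. By position within 100 kb of a RefSeq start, such FOXL2 regions under other names numbered 6 for Fosl2, 3 for Fosb and 3 for Jun. They numbered 2 for Jund, 1 for Atf3 and 1 for Batf, and Junb had 0. A share of all genes by position was not computed. H3K27ac in all 4 libraries was found at 7 AP-1 genes and 20 of the others, against 49.6%. FOXL2 called with activin only was found at 2 AP-1 genes, Batf and Jdp2, and at 6 of the others, against 23.7%, and with vehicle only at Fos and at 2 of the others, against 10.6%. H3K27ac called with activin only was found at Fos and Jdp2 and at 4 of the others, against 7.78%, and with vehicle only at Jdp2 and at none of the others, against 8.45%. The median number of SMAD2/3 regions per gene was 0 in both lists and over all genes. Among the others, Creb1, Creb3l2 and Hlf had the most SMAD2/3 regions, 2 each. Those of Creb1, which encodes the cyclic AMP response factor, lay at -37.6 and -8.05 kb, those of Creb3l2 at -24.5 and +13.7 kb, and those of Hlf at +51.3 and +69.2 kb. None of these 6 regions had a vehicle SMAD2/3 peak, and all overlapped FOXL2, as at Fos and not at Jdp2.

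The genes whose numbers of peaks over the 12 libraries were most like those of Fos were Prkce, Yipf4, Gm15907, Celf1 and Nnmt. Their Euclidean distances in log2(1 + peaks) from Fos were 0.60, 0.62, 0.64, 0.72 and 0.73. Prkce, for example, had 1 SMAD2/3 peak in each activin library and none with vehicle, 12, 11, 9 and 11 FOXL2 peaks, and 5, 5, 7 and 6 H3K27ac peaks. Those nearest Jdp2 were Smarcal1, Ptma, Fignl1, Sufu and Nedd9, at distances of 0.83 to 0.91. The Jdp2 set therefore lay farther from its gene than the Fos set did.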

How the data were processed

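ChIP-seq peak lists of 12 libraries were used, 1 narrowPeak or broadPeak list and 1 annotation table each. Bowtie2, MACS2 and HOMER, with the builds GRCm38 and mm10, are named per the submitters' processing notes, without versions or settings. The authors called peaks per library and deposited, for each peak, a score, a fold enrichment (a linear ratio to a background that is not given in the sources used here) and −log10 p-values and q-values. These describe a peak within its own list. Reads of 50 bp were single-end per the labels' protocols, and the depth reached is unknown.

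Here, the peaks of an antibody's 4 libraries were merged into regions where they shared 1 bp. A region with peaks in both activin and neither vehicle library was called activin-only, and the reverse vehicle-only. Percentiles rank peaks by −log10 q, within a list or among regions found in all 4 libraries. Where a region held several peaks, its strongest was used. Overlap of targets needed 1 bp. Wilson intervals are at the 95% level. Distances are those of the deposited annotation, and RefSeq promoter windows (250 bases before to 50 after the start, GRCm38.p6) matched 9 of the 10 genes. Coordinates are 1-based. The scripts were tested on simulated peaks (Python 3.11.15, pandas 2.3.3, numpy 2.4.6, scipy 1.17.1).

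The members, the other gene lists and the tests were chosen with earlier results of these data known. Regions described were the SMAD2/3 regions of a member, the FOXL2 and H3K27ac regions nearest each start or found with 1 treatment only, and those overlapping SMAD2/3. Other basic leucine zipper genes were named for having the most SMAD2/3 regions, and similar genes for the smallest distance, 5 per gene. Further regions of Fos, Jdp2, Jun, Fosl2 and Batf were described after their values were seen. Alternatives were a −log10 q of 5 or more, lists cut to equal length, a 50 kb limit, 50% coverage, ranks by whole list or by fold, a replicate block, each replicate left out, and a rule by position.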

Additional observations from a re-analysis of the deposited data

How the results depend on the processing

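A distance limit of 50 kb or 50% coverage of the SMAD2/3 region moved no count by more than 1.5 times. With −log10 q of 5 or more, SMAD2/3 activin-only regions went from 2 to 1 (the Jdp2 site was lost), H3K27ac activin-only regions from 2 to 0 and vehicle-only regions from 1 to 0, overlap of SMAD2/3 with FOXL2 from 50% to 100% and with H3K27ac from 50% to 0%, the log2 ratio of H3K27ac peak numbers from -0.0 to -0.33, and the difference of mean log2 acetylated length of Fos from 0.98 to 0.69. At that cut FOXL2 activin-only regions stayed at 3. The Jdp2 region at +37.0 kb was lost, and the Fos region at +15.0 kb was gained. Lists of equal length left 0 SMAD2/3 activin-only regions, since every list is then as short as the shortest. With vehicle libraries of the other target, overlap with H3K27ac was 0%. FOXL2 regions ranked higher with activin numbered 1, and 2 by whole-list percentile or by fold. H3K27ac regions ranked higher with vehicle numbered 1, and 2 by whole-list percentile.

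Naming regions by position within 100 kb of a RefSeq start, a rule chosen after seeing the data, gave 4 SMAD2/3 activin-only regions, 8 and 2 FOXL2 regions with activin only and vehicle only, and 6 and 4 such H3K27ac regions. Ranked higher with activin and with vehicle were then 3 and 11 of 29 FOXL2 regions, against 26.1% and 33.1% of all such regions, and 16 and 11 of 63 H3K27ac regions, against 27.9% and 30.4%. More regions were counted than by gene name, and the cause of the change in balance was not tested. Fosl1 was not part of this count.

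Replicate numbers name libraries and no label ties vehicle 1 to activin 1. The deviations of same-numbered libraries correlated at 0.164 for FOXL2 and -0.0389 for H3K27ac. Comparing within numbers (a replicate block) gave 3 FOXL2 regions higher with activin in place of 1, and 5 H3K27ac regions higher with vehicle in place of 1.

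Leaving out each replicate in turn asks for 1 library fewer, so that more regions can meet a call. It gave 2 to 2 SMAD2/3 activin-only regions, 3 to 7 FOXL2 activin-only, 2 to 6 FOXL2 vehicle-only, 2 to 5 H3K27ac activin-only and 1 to 4 H3K27ac vehicle-only regions. It gave 1 to 5 FOXL2 regions ranked higher with activin and 3 to 5 with vehicle, and 7 to 10 and 2 to 6 H3K27ac regions. The activin-only counts moved by over 1.5 times without activin 1 (6 for FOXL2) or activin 2 (7 for FOXL2 and 5 for H3K27ac). The vehicle-only counts moved so for FOXL2 without any of the 4 libraries (6, 2, 2 and 3) and for H3K27ac without vehicle 2 (2) or activin 1 (4). Higher FOXL2 ranks with activin numbered 2, 5 and 4 without vehicle 1, vehicle 2 and activin 1, and with vehicle 5, 4 and 4 without vehicle 1, activin 1 and activin 2. Higher H3K27ac ranks with activin numbered 10 without vehicle 1, and with vehicle 2, 6, 5 and 4 without each library in turn. Overlap with FOXL2 stayed at 50 to 50%. The log2 ratio of peak numbers ran from -0.18 to 0.47 for FOXL2, where the main value was 0.15, and from -0.15 to 0.14 for H3K27ac. The difference of mean log2 acetylated length of Fos ran from 0.76 to 1.19. A log2 ratio for SMAD2/3 peak numbers could not be formed, because the vehicle lists held 0 family peaks.

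The limits are 2 libraries per treatment, unknown read depth, a control sample that was not analysed, SMAD2/3 vehicle lists far shorter than the activin lists, and gene names given by the nearest start.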

Other observations

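Peaks close to AP-1 genes also carried the names of neighbours, and these regions were found after the data were examined. A SMAD2/3 region with activin only lay at chr5:32086861-32087213, -49.4 kb from the RefSeq start of Fosl2, under the name Gm10463. Its folds were 4.44 and 4.08, and it overlapped H3K27ac and not FOXL2. Another lay at chr8:70647321-70647876, -50.1 kb from Jund, under the name Pgpep1. Its folds were 8.82 and 11.3, and it too overlapped H3K27ac and not FOXL2. The H3K27ac regions at both sites were found in all 4 libraries and ranked higher in both activin libraries. Of all such regions, 27.9% had this order. At the Fosl2 site the percentiles among common regions were 70.2 and 65.2 with vehicle, against 80.3 and 78.6 with activin. At the Jund site they were 62.4 and 64.4 with vehicle, against 97.6 and 96.8 with activin. A FOXL2 region with activin only lay at chr5:32062751-32063821, -73.2 kb from Fosl2, under the name Gm17130, with folds of 10.8 and 10.5. With the sites of Fos and Jdp2, 4 activin-only SMAD2/3 regions thus lay within 100 kb of an AP-1 start by position, and the Fos site was the one that overlapped both other targets. Distance does not show which gene a region acts on.

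Among the other leucine zipper genes, the SMAD2/3 region of Mafa, which encodes a large Maf factor, lay at +9.08 kb. Its folds were 9.34 and 7.98, and it stood at the 90.3 and 83.5 percentiles of the activin lists, beside 87.2 and 81.3 for the Fos site. Single SMAD2/3 regions lay at -2.74 kb from Cebpa and -1.20 kb from Cebpg, which encode C/EBP factors, and at +24.9 kb from Creb3l1. Of the 7 genes with such regions, Creb3l1 was the one without FOXL2 at its region. These genes were named here after their values were seen.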
